A study of Mus musculus with 12 samples.

Results

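The killer-cell lectin-like receptors of the Klr gene families were followed across 4 populations of CD4+ T cells, sorted by memory phenotype and by a past history of GM-CSF expression. The members are 10 listed genes, *Klrc1*, *Klrc2*, *Klrk1*, *Klrd1*, *Klrb1c*, *Klrg1*, *Klre1*, *Klra1*, *Klra3* and *Klra9*, matched by Entrez identifier to the 17523 genes of the expression table. Values were found for 8 of the 10, and all 8 passed the filter on low values. *Klra3* and *Klra9* were not analysed here.

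Lectin-like receptors are dimeric type II membrane proteins that natural killer (NK) cells use to sense class I MHC molecules and ligands induced by stress. Most are encoded together in the NK gene complex, and the family holds inhibitory receptors, which carry motifs that recruit phosphatases, and activating ones, which signal through adaptor proteins. Subsets of T cells, among them CD8+ memory T cells, NKT cells and gamma delta T cells, also carry some of these receptors.

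RNA was sequenced from CD4+ T cells of the spleens of *Gr/fr* mice on the C57BL/6 strain, which had not been immunized. In these mice the *Csf2* allele, which encodes GM-CSF, also drives iCre and BFP, and iCre turns on eYFP from the Rosa26 locus for good. YFP+ cells are therefore cells, or descendants of cells, in which the *Csf2* locus was once active, whether or not it still is. The 4 groups, of 3 libraries each, were YFP− and YFP+ naïve cells (CD62L+CD44−) and YFP− and YFP+ effector memory (TEM) cells (CD62L−CD44hi). All carry the same alleles and none was treated. Other sorted CD4+ T cells of the study came from mice 2 to 3 months old, and no separate age is stated for these libraries. The values used are normalized counts, that is, reads scaled by a size factor for each library. Reads on genes numbered from 40974124 to 57822269 per library. As a check of the sort, *Cd44* ranged from 2334 to 3372 in naïve and from 21778 to 29383 in TEM libraries, and *Cd4* was between 36078 and 67471 in all 12.

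The members lie on chromosome 6, and their promoters are shown because most of the genes changed together between the TEM populations. Entries from RefSeq on GRCm38.p6, each with 250 bases before and 50 after the start of a transcript, covered 8 of the 10 members in 10 windows. *Klrd1* and *Klrg1* had no entry. The windows were searched on both strands for TGTGGT, the core letters of a Runx motif, whose reverse complement is ACCACA. This motif and the others were chosen with the data already seen. The windows of 6 of the 8 members held TGTGGT or ACCACA, against 2 of 16 other lectin-like receptor genes (*Klrb1a* and *Klrc3*). Counted by window it was 7 of 10 and 2 of 19, against 16.8% of all 32851 promoters of that length. The 2 windows of *Klrc2* overlap and share their matches. Those of *Klra3* and *Klra9* did not hold these letters. Promoters of 5 members follow from 5′ to 3′ on the strand of the gene, with the matches to TGTGGT or ACCACA in capitals. They are at chr6:129678924-129679223 for *Klrc1*, chr6:129660507-129660806 for *Klrc2*, chr6:129623815-129624114 for *Klrk1*, chr6:128788592-128788891 for *Klrb1c* and chr6:130386825-130387124 for *Klra1*, all on the minus strand.
Klrc1: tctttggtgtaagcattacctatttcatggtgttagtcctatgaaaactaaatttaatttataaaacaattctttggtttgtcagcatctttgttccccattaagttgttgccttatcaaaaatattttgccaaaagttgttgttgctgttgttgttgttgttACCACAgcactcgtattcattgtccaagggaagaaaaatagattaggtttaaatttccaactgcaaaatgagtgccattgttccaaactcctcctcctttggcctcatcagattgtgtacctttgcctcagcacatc
Klrc2: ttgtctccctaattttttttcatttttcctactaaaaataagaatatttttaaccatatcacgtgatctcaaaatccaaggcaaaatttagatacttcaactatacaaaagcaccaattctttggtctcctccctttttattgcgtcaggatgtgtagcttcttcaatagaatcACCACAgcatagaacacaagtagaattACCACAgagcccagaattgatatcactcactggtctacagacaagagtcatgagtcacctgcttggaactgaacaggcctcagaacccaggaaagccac
Klrk1: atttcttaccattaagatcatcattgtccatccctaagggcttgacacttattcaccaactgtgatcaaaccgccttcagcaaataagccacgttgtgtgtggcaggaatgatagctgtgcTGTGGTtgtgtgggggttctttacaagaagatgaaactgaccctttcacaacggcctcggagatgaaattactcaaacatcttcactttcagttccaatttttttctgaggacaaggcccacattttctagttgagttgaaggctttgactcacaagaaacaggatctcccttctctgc
Klrb1c: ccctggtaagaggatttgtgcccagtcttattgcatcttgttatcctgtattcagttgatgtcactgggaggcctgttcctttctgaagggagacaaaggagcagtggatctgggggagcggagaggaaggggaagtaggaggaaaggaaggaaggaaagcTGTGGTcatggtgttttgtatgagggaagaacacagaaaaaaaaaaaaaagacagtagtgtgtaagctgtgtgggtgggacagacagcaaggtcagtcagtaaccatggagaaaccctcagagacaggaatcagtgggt
Klra1: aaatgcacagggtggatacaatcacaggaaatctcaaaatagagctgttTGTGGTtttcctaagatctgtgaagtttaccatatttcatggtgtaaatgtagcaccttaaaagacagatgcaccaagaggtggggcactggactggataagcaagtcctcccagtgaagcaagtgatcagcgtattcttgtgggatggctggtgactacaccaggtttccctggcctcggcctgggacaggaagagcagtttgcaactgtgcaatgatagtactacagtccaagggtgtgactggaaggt
The match began 87 bases upstream of the start in *Klrc1*, 129 in *Klrk1*, 89 in *Klrb1c*, 201 in *Klra1* and 229 in *Klre1*. *Klrc2* had 2 matches, 76 and 49 bases upstream in the window shown. The T-box core GTGTGA was in the windows of 2 of the 8 members (*Klra1* and *Klre1*) and 1 of the 16 other receptor genes (*Klrg2*). By window it was in 3 of 10 and 1 of 19, against 14.5% of all promoters. The E-box CAGGTG was in 1 of the 8 (*Klrc2*) and in 4 of the 16 (*Klra5*, *Klra6*, *Klra7* and *Klrc3*). By window it was in 1 of 10 and 4 of 19, against 20.2% of all promoters. A match describes the sequence only.

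Replicate 2 of the naïve YFP+ cells stood apart from the other naïve libraries, in a marker list chosen with earlier results of these data known. Its 8 myeloid markers summed to 5042 normalized counts, against 2441 and 2131 in the other YFP+ naïve libraries and 1920.4 to 2056 in the YFP− naïve libraries. It also held the 6 reads of *Klrc1*, the 1 read of *Klrc2* and the 7 reads of *Klre1* found in naïve cells, none of which was seen in the other 5 naïve libraries. Several results that rest on naïve YFP+ cells are therefore given with and without it, and the rest only with it.

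TEM YFP+ cells held the highest mean level of 7 of the 8 measured members, and TEM YFP− cells that of *Klrg1*. Transcripts of *Klrc1*, *Klrc2* and *Klre1* were at 0 in all YFP− naïve libraries, and *Klrd1* was the member found at over 100 normalized counts in every library. In bulk RNA, fewer cells of a type and less RNA per cell cannot be told apart, so each level is an average over the sorted cells. Genes were compared with limma on log2 of the normalized count plus 1, and fold changes of genes with few reads depend on the added 1. Calls were made where the p-value, adjusted by Benjamini-Hochberg over 15587 tested genes, was at most 0.05.

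**Figure D1:**
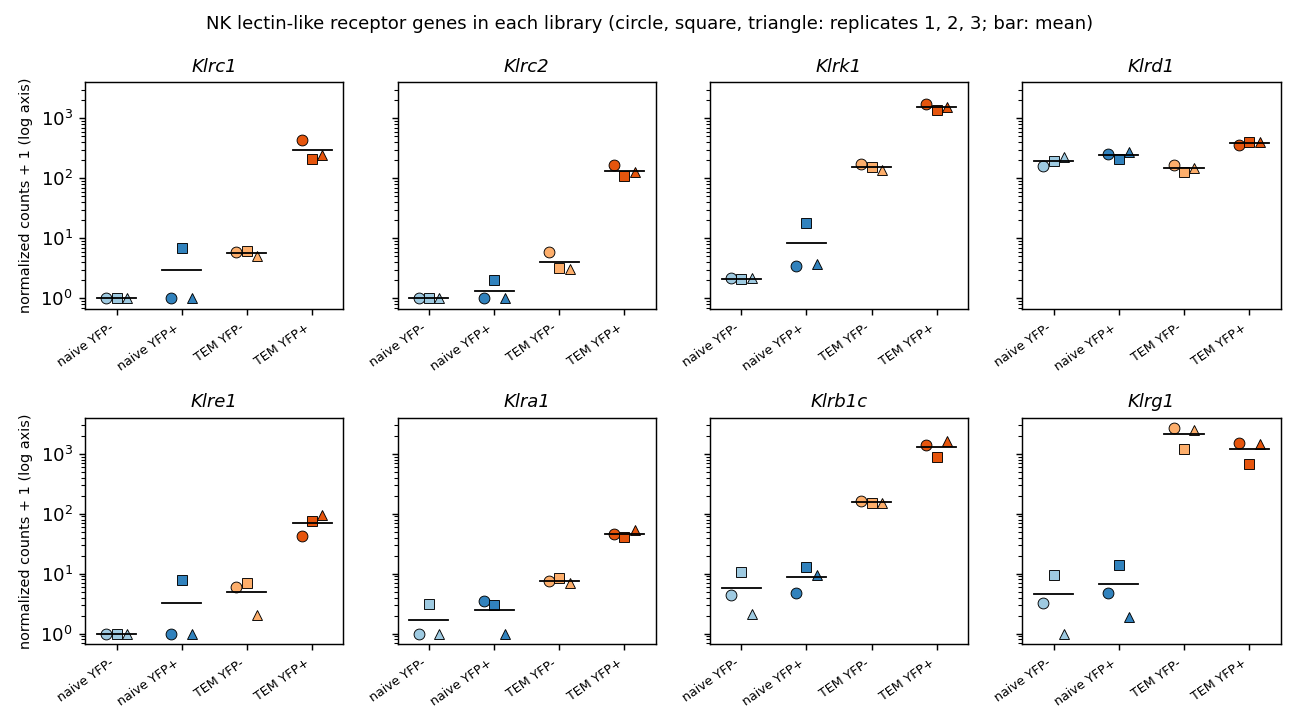
Normalized counts plus 1 (log axis) of the 8 measured receptor genes in each of the 12 libraries, by group, with symbols for replicates 1, 2 and 3 and a bar at the mean. The 3 TEM YFP+ libraries lie above all others for every gene but Klrg1, which was highest in a TEM YFP− library at 2688.

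CD94, encoded by *Klrd1* (Entrez 16643, chr6:129588092-129598775), is the shared subunit that pairs with the NKG2 proteins. In TEM YFP+ cells, *Klrd1* had 355, 404 and 406 normalized counts in replicates 1, 2 and 3, against 164, 126 and 149 in TEM YFP− cells. Naïve YFP+ cells had 256, 209 and 275, and naïve YFP− cells had 160.1, 196 and 223. The TEM YFP+ libraries were above all others, while the ranges of each neighbouring pair among the other groups overlapped in the order naïve YFP+, naïve YFP− and TEM YFP−. Group means were 388 ± 28.9 (SD, n = 3) in TEM YFP+, 247 ± 34.3 in naïve YFP+, 193 ± 31.8 in naïve YFP− and 146 ± 19.2 in TEM YFP− cells. The level in TEM YFP+ cells was 2.65-fold that in TEM YFP− cells, with a log2 change of 1.41 (adjusted p = 0.000672 in limma, SE 0.19) and every YFP+ library above every YFP− library.

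NKG2A, the product of *Klrc1* (Entrez 16641, chr6:129666015-129682852), is the inhibitory partner of CD94. *Klrc1* had 443, 210.2 and 247 normalized counts in TEM YFP+ replicates 1, 2 and 3 and 4.92, 5.19 and 4.07 in the TEM YFP− ones. Among naïve libraries it was at 0 in 5 and at 5.90 in YFP+ replicate 2. All TEM YFP+ libraries were far above the rest, and the ranges of TEM YFP− and naïve YFP+ cells overlapped because of that replicate. The mean of 300.1 ± 125 (SD, n = 3) in TEM YFP+ cells was 63.5-fold the mean of 4.73 ± 0.581 in TEM YFP− cells. The log2 fold change was 5.64 (adjusted p = 0.00043 in limma, SE 0.69), higher in 3 of 3 libraries. NKG2C, from *Klrc2* (Entrez 16642, chr6:129649602-129660737), is an activating partner of CD94. *Klrc2* had 165, 107 and 128 normalized counts in TEM YFP+ cells and 4.92, 2.22 and 2.04 in TEM YFP− cells, with 0 in 5 naïve libraries and 0.984 in naïve YFP+ replicate 2. The TEM groups did not overlap with each other or with the naïve groups, whose own ranges overlapped. Between the TEM means, 133 ± 29.4 and 3.06 ± 1.61 (SD, n = 3), the ratio was 43.5 and the log2 fold change 5.09 (adjusted p = 0.000149 in limma, SE 0.50; 3 of 3 libraries higher).

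*Klrc1* and *Klrc2* are near-copies, so their reads can be exchanged. Of the 50-base stretches in annotated *Klrc1* transcripts, 38.6% also occur in another gene, 36.6% in *Klrc2*. For *Klrc2* the share was 16.3%, with 12.4% in *Klrc1*. Since the counting could have split such reads, *Klrc1*, *Klrc2* and *Klrc3*, which encodes the related NKG2E, were also added up, an alternative chosen after seeing the data. The sum was 666, 414 and 481 normalized counts in TEM YFP+ libraries and 10.7, 7.41 and 6.11 in TEM YFP− libraries. It was 10.8 in naïve YFP+ replicate 2 and 0 in the other naïve libraries. The summed gene had a log2 change of 5.85 (adjusted p = 0.000777 in limma, SE 0.79) between the TEM populations, higher in 3 of 3 libraries.

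Levels of CD94 and of its partners were compared per kb of exon (GENCODE M21). In TEM YFP+ cells *Klrd1* had 277, 315 and 317 normalized counts per kb, and the 3 Klrc genes together had 331, 257 and 290.0 per kb. The ratio of *Klrd1* to the Klrc sum was 0.836, 1.23 and 1.09, so the 2 levels were close to equal in these libraries as counted. TEM YFP− cells had ratios of 28.8, 32.8 and 48.3, with a Klrc sum of 2.40 to 4.44 per kb against 98.3 to 128 per kb of *Klrd1*. In naïve cells *Klrd1* lay between 125 and 215 per kb, while the Klrc sum was 0 except in YFP+ replicate 2, at 8.49 per kb. How reads shared between the Klrc genes were counted was not given in the sources used here, and if they were dropped the sums and these ratios would differ. The ratios also depend on the exon lengths used, 5812 bases for *Klrc2* and 736 for *Klrc3*. Without lengths, the Klrc sum in TEM YFP+ cells was 666, 414 and 481 normalized counts, against 355, 404 and 406 of *Klrd1*.

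NKG2D, an activating receptor for stress-induced ligands that signals through DAP10, is encoded by *Klrk1* (Entrez 27007, chr6:129610323-129623903). *Klrk1* had 1727, 1403 and 1564 normalized counts in TEM YFP+ cells and 175, 151 and 135 in TEM YFP− cells. Naïve YFP+ libraries had 2.47, 16.7 and 2.79, and naïve YFP− libraries 1.15, 1.06 and 1.15, which is 1 read each. The order TEM YFP+, TEM YFP−, naïve YFP+, naïve YFP− had no overlap between neighbours. In TEM cells the means were 1565 ± 162 and 154 ± 19.7 (SD, n = 3), a ratio of 10.2, and the log2 fold change was 3.34 (adjusted p = 0.00157 in limma, SE 0.51; 3 of 3 libraries higher). None of the 50-base stretches of *Klrk1*, *Klrd1* or *Klrg1* transcripts occurs in another gene.

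The NK1.1 antigen of C57BL/6 mice is the activating receptor NKR-P1C, from *Klrb1c* (Entrez 17059, chr6:128778485-128788641). *Klrb1c* had 1403, 869.9 and 1639.7 normalized counts in TEM YFP+ cells and 159.9, 153 and 149 in TEM YFP− cells. Naïve YFP+ cells had 3.71, 11.8 and 8.37, and naïve YFP− cells 3.46, 9.55 and 1.15. The TEM YFP+ libraries were highest and the TEM YFP− ones next, with no overlap, and the naïve groups overlapped. Means of 1304 ± 394 and 154 ± 5.69 (SD, n = 3) gave a ratio of 8.48 and a log2 change of 3.03 (adjusted p = 0.00365 in limma, SE 0.53; 3 of 3 libraries higher). Of its 50-base stretches 17% are shared, 12.4% with the overlapping model *Gm44511* on the same strand.

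KLRE1, from *Klre1* (Entrez 243655, chr6:129559365-129585828), pairs with KLRI proteins to form inhibitory or activating receptors. *Klre1* had 41.5, 73.5 and 94.1 normalized counts in TEM YFP+ cells and 4.92, 5.93 and 1.02 in TEM YFP− cells. It was at 0 in 5 naïve libraries and at 6.89 in naïve YFP+ replicate 2. The TEM YFP+ libraries stood above all others, and the TEM YFP− range overlapped that of naïve YFP+ cells. Means of 69.7 ± 26.5 and 3.96 ± 2.59 (SD, n = 3) gave a ratio of 17.6 and a log2 change of 3.94 (adjusted p = 0.00867 in limma, SE 0.80; 3 of 3 libraries higher). Without TEM YFP− replicate 3, which had 1.02, the log2 fold change was 3.39 and the adjusted p 0.0509. Adding 0.1 in place of 1 before the log gave an adjusted p of 0.141, in a range over all settings from 0.000406 to 0.141.

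Ly49A, an inhibitory receptor for class I MHC, is encoded by *Klra1* (Entrez 16627, chr6:130363918-130386874). *Klra1* had 44.5, 40.4 and 52.3 normalized counts in TEM YFP+ cells and 6.56, 7.41 and 6.11 in TEM YFP− cells. Naïve YFP+ libraries had 2.47, 1.97 and 0, and naïve YFP− libraries 0, 2.12 and 0. The TEM groups were separate from each other and from the naïve groups, which overlapped. Means of 45.7 ± 6.04 and 6.69 ± 0.659 (SD, n = 3) gave a ratio of 6.83 and a log2 change of 2.60 (adjusted p = 0.0209 in limma, SE 0.61; 3 of 3 libraries higher). The call depended on single libraries. Its adjusted p was 0.0691, 0.0545 and 0.0829 without TEM YFP− replicate 1, 2 or 3, 0.0701 and 0.0823 without TEM YFP+ replicate 1 or 3, and 0.396 when 0.1 was added before the log, with a range over settings that began at 0.000306. Of its 50-base stretches 2.98% are shared, with *Klra4*.

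KLRG1, an inhibitory receptor for cadherins and a mark of differentiated effector cells, comes from *Klrg1* (Entrez 50928, chr6:122270596-122282833), which lies apart from the other members. *Klrg1* had 1490.2, 663 and 1447 normalized counts in TEM YFP+ cells and 2688, 1189 and 2456 in TEM YFP− cells. Naïve YFP+ libraries had 3.71, 12.8 and 0.930, and naïve YFP− libraries 2.30, 8.49 and 0. Replicate 2 was the lowest in both TEM groups, whose ranges overlapped, and the naïve groups overlapped as well. Within each replicate number the YFP− library had the higher value, by 1.80, 1.79 and 1.70 times. The means were 1199.9 ± 466 and 2111 ± 807 (SD, n = 3), with a log2 change of -0.82 (adjusted p = 0.74 in limma, SE 0.80), which did not pass the test. With the replicate number as a block the adjusted p was 0.596 in limma (SE 0.78). That block shifts all groups alike, while replicate 2 was the lowest in both TEM groups and the highest in both naïve groups. It therefore cannot take up the pairing of the TEM libraries, and the SE is shared with naïve libraries of few reads. A paired test of the TEM libraries alone was not made.

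Between the TEM populations, 7 of the 8 measured members were called higher in YFP+ cells and 0 lower, while 2.3% of all tested genes were called higher and 4.67% lower. The 7 were all but *Klrg1*. *Klrc1*, *Klrc2* and *Klre1* passed the filter on low values only because of the TEM YFP+ libraries, so their place among the 8 was set by that group. With no filter on the 17523 genes the count was also 7 of 8. The median log2 fold change was 3.18 over the members and -0.01 over all tested genes. By limma at an unadjusted p of 0.05 or less the count was also 7, where 2659 of all 15587 tested genes reached that p in either direction. The number called higher was 7 with edgeR and with DESeq2 on the recovered reads, with 0 lower in each.

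**Figure D2:**
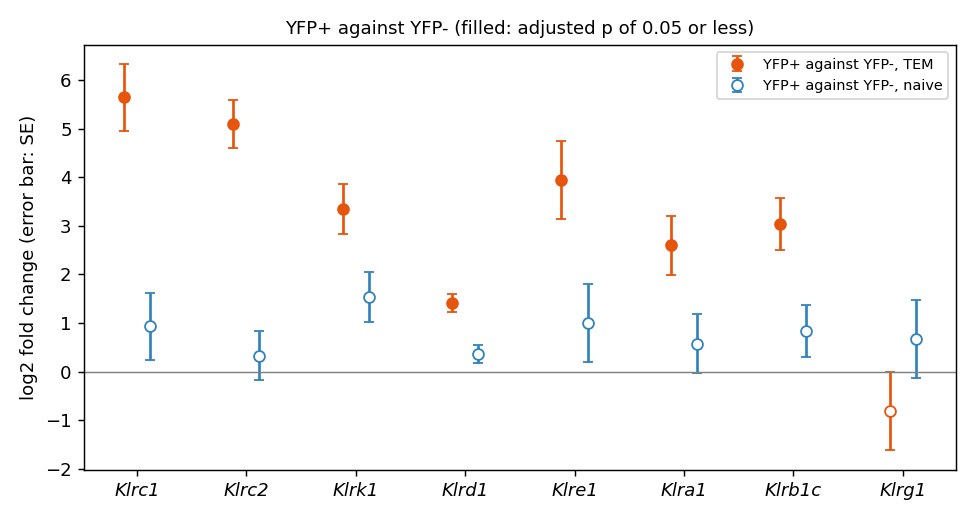
Log2 fold change of YFP+ against YFP− cells for the 8 receptor genes in TEM and in naïve cells, with bars of 1 SE and filled points at an adjusted p of 0.05 or less in limma. In TEM cells 7 genes lie between 1.41 and 5.64 and Klrg1 at -0.82, and in naïve cells all 8 lie between 0.33 and 1.54 with none filled.

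In naïve cells no member was called between YFP+ and YFP−, in either direction. The counts were 0 of 8 with limma, edgeR and DESeq2, and 1, 1 and 3 of 8 had an unadjusted p of 0.05 or less, as did 518, 607 and 710 of all 15587 tested genes. Among all tested genes limma called 0.00642% higher and 0% lower. The log2 fold changes were 0.93 for *Klrc1*, 0.33 for *Klrc2*, 0.99 for *Klre1*, 0.35 for *Klrd1*, 0.83 for *Klrb1c*, 0.57 for *Klra1* and 0.67 for *Klrg1*, each with overlapping groups. *Klrk1* had the largest in this fit, 1.54 (adjusted p = 1 in limma, SE 0.51), and was higher in 3 of 3 YFP+ libraries, on 22 reads in these and 3 in the YFP− libraries. Over all settings the log2 fold change reached 4.35 for *Klre1* and 4.15 for *Klrc1*, against 2.75 for *Klrk1*. The median over the members was 0.75, against 0.01 over all tested genes. Without naïve YFP+ replicate 2 it was 0.18, with 4 members above 0, 3 at exactly 0 (*Klrc1*, *Klrc2* and *Klre1*) and 1 below (*Klrg1*, -0.06), and the value for *Klrk1* was 0.77. *Klrg1* was at -0.16 without naïve YFP− replicate 3. These fits leave out 1 library without pairing. Within each replicate number YFP+ was the higher for *Klrk1*, *Klrd1*, *Klrb1c* and *Klrg1*, and with the replicate block no member was called (adjusted p from 0.652 to 1). At this depth a difference of a few reads in naïve cells was not detectable.

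Whether the YFP difference itself was larger in TEM than in naïve cells was tested as an interaction. It was called higher for 3 of 8 members (*Klrc1*, *Klrc2* and *Klrd1*) and lower for 0, against 0.828% higher and 2.73% lower of all tested genes. In this test too, *Klrc1*, *Klrc2* and *Klre1* passed the filter on low values only because of the TEM YFP+ libraries. No count without the filter is given here for the interaction. The difference between the log2 fold changes was 4.72 for *Klrc1* (adjusted p = 0.0191 in limma, SE 0.97), 4.76 for *Klrc2* (adjusted p = 0.00436, SE 0.71) and 1.05 for *Klrd1* (adjusted p = 0.0477, SE 0.26). It was not called for *Klre1* at 2.95, *Klrb1c* at 2.20, *Klra1* at 2.02, *Klrk1* at 1.80 or *Klrg1* at -1.49, with adjusted p from 0.188 to 0.813. The median was 2.11 over the members and -0.01 over all tested genes. Without naïve YFP+ replicate 2, 4 members were called: *Klrc1* (5.64, adjusted p = 0.00347), *Klrc2*, *Klrk1* (2.57, adjusted p = 0.0069) and *Klre1* (3.94, adjusted p = 0.0331), while *Klrd1* (0.94, adjusted p = 0.104) was not. That library held every naïve read of *Klrc1*, *Klrc2* and *Klre1*, and was singled out in part for them. Without it the naïve part of these 3 genes was 0. Their interaction then only repeats the change between the TEM populations and adds nothing to it.

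The interaction rested on few libraries and on how low counts were treated. For *Klrc1* the adjusted p was 0.0566 without TEM YFP− replicate 3 and 0.0583 without TEM YFP+ replicate 1, and in each of these fits 1 member was called. For *Klrd1* it was above 0.05 without any 1 of 11 of the 12 libraries, between 0.0569 (naïve YFP+ replicate 3) and 0.122 (naïve YFP− replicate 3), and the call was kept only without naïve YFP− replicate 1. The interaction of *Klrc1* was 1.82 (adjusted p = 0.983) with edgeR and 2.67 (0.552) with DESeq2, and that of *Klrc2* was 3.48 (0.995) and 4.57 (0.171). Naïve cells held 6 reads of *Klrc1* and 1 of *Klrc2* in all, so the size of the naïve effect was hardly measured. With the 3 Klrc genes summed, the interaction was 4.66 (adjusted p = 0.0396 in limma, SE 1.12). Its naïve part, a log2 change of 1.19, rested on naïve YFP+ replicate 2, since the sum was 0 in the other naïve libraries. No value without that library is given here.

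TEM and naïve cells were compared within each YFP fraction. In YFP− cells 7 of 8 members were called higher in TEM cells and 0 lower, against 29.9% and 19.9% of all tested genes. *Klrg1* differed most, with a log2 change of 9.30 (adjusted p = 1.28e-06 in limma, SE 0.80), followed by *Klrk1* at 6.18 (adjusted p = 9.33e-07, SE 0.51) and *Klrb1c* at 5.05 (adjusted p = 6.7e-06, SE 0.53), each higher in 3 of 3 libraries. For *Klrg1* the value was 10.10 without naïve YFP− replicate 2 and 8.47 without replicate 3, and for *Klrb1c* it was 5.64 without replicate 2. *Klrc1*, *Klrc2*, *Klre1* and *Klra1* were called on few reads, with log2 fold changes from 1.95 to 2.51. *Klrc1*, at 0 in naïve YFP− cells, was at least 1.41-fold higher in TEM YFP− cells and *Klre1* at least 1.18-fold, taking 3 reads per library as the floor. *Klrc2*, also at 0 in naïve YFP− cells, gave no bound above 1, since its level in TEM YFP− cells was below that floor. The call of *Klre1* (adjusted p = 0.0428) was lost without any 1 of the naïve YFP− libraries (adjusted p from 0.083 to 0.0853), TEM YFP− replicate 1 (0.119) or 2 (0.138), or TEM YFP+ replicate 1, 2 or 3 (0.0501, 0.0541 and 0.0536). *Klrd1* was not called, at -0.40 (adjusted p = 0.0968, SE 0.19), and without naïve YFP− replicate 1 it was called lower at -0.52 (adjusted p = 0.0478). Quantile normalization shifted the median of all tested genes from 0.05 to -0.20 and left 3 members called higher, with *Klrd1* called lower at -1.48 (adjusted p = 3.58e-05). It called 9510 of all 15587 tested genes in either direction, against 7769 in the main fit.

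In YFP+ cells all 8 members were called higher in TEM than in naïve cells, against 24.7% higher and 16.7% lower of all tested genes. Here too *Klrc1*, *Klrc2* and *Klre1* entered the test through the TEM YFP+ libraries, and with no filter the count was 8 of 8. The median was 6.97 over the members and 0.03 over all tested genes, where the corresponding medians in YFP− cells were 2.45 and 0.05. Log2 fold changes were 7.99 for *Klrk1* (adjusted p = 1.54e-07 in limma, SE 0.51), 7.82 for *Klrg1* (adjusted p = 7.96e-06, SE 0.80), 7.25 for *Klrb1c* (adjusted p = 4.54e-07, SE 0.53) and 7.23 for *Klrc1* (adjusted p = 4.05e-06, SE 0.69), each higher in 3 of 3 libraries. Without naïve YFP+ replicate 2 they were 8.75 for *Klrk1*, 8.55 for *Klrg1*, 8.16 for *Klrc1* and 6.07 in place of 5.07 for *Klre1*. *Klrg1* was at 7.13 without naïve YFP+ replicate 3. The smallest was that of *Klrd1*, 0.66 (adjusted p = 0.0127, SE 0.19; 3 of 3 libraries higher), which was 0.22 (adjusted p = 0.36) under quantile normalization, where the median of all tested genes was -0.14. The TEM groups used here are the same libraries as in the YFP comparison.

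The other lectin-like receptors were taken from a list of 17 genes, of which 11 had values and 10 were tested. Between the TEM populations 3 were called higher in YFP+ cells, 2 lower and 5 were not called, with a median log2 fold change of 1.62. *Klrc3* and *Klra4* passed the filter on low values only because of the TEM YFP+ libraries and *Klri1* only because of the TEM YFP− ones. With no filter *Klrc3* (adjusted p = 0.00016) and *Klra4* (adjusted p = 0.016) were also called, as was *Klri1* (adjusted p = 0.00569). *Klrc3* had 58.6, 97.3 and 106 normalized counts in TEM YFP+ and 0.820, 0 and 0 in TEM YFP− cells. It was the tested lectin-like receptor with the largest change, 6.13 (adjusted p = 0.000234 in limma, SE 0.66), a value that depends on the added 1 because the TEM YFP− libraries held 1 read in all. Of its 50-base stretches 36.3% are shared, 31.1% with *Klrc2*, and for *Klrb1b* the share is 27.2%, with 25.5% in *Gm44511*. *Klrb1b*, an inhibitory NKR-P1 gene named here after its values were seen, had 112, 83.9 and 135 in TEM YFP+ and 24.6, 18.5 and 18.3 in TEM YFP− cells (log2 fold change 2.36, adjusted p = 0.00365, SE 0.42; 0.0855 with 0.1 added before the log, in a range from 4.26e-06). The Ly49Q gene *Klra17* went the other way. It had 26.3, 6.21 and 41.8 in TEM YFP+ and 725, 442 and 815 in TEM YFP− cells, a log2 change of -4.98 (adjusted p = 0.00111 in limma, SE 0.72), or -4.23 without TEM YFP+ replicate 2. *Klri1*, which encodes an inhibitory partner of KLRE1, had 4.04, 2.07 and 2.85 in TEM YFP+ and 57.4, 29.6 and 38.7 in TEM YFP− cells (log2 fold change -3.41, adjusted p = 0.00661, SE 0.66; 0.18 with 0.1 added, in a range from 0.000203). For *Klrc3*, *Klrb1b*, *Klra17* and *Klri1* the 3 libraries of either TEM group did not overlap those of the other.

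The Ly49 genes *Klra4* and *Klra6* were close to the threshold. *Klra4*, for the activating Ly49D, had 25.3, 25.9 and 24.7 normalized counts in TEM YFP+ and 3.28, 7.41 and 1.02 in TEM YFP− cells. Its log2 fold change of 2.66 (adjusted p = 0.0204 in limma, SE 0.62; 3 of 3 libraries higher) lost the call without TEM YFP− replicate 1 (0.0642) or 3 (0.103) and without TEM YFP+ replicate 1 (0.0704), 2 (0.0565) or 3 (0.0665). It was also not called with edgeR (0.0568), DESeq2 (0.0587) or 0.1 added (0.283), in a range that began at 0.00152. *Klra6*, named after its values were seen, had 25.3, 24.9 and 35.2 in TEM YFP+ and 9.84, 3.71 and 0 in TEM YFP− cells. Its log2 fold change of 2.97 (adjusted p = 0.0503, SE 0.82) was not called. It passed the filter on low values only because of the TEM YFP+ libraries, and was called with no filter (0.0438) and with the replicate block (0.0393). It was also called without naïve YFP+ replicate 2 (0.0297) and without TEM YFP− replicate 1 (3.74, adjusted p = 0.0234), while without TEM YFP− replicate 3 the value was 2.03 (adjusted p = 0.202). Over all settings its adjusted p ranged from 0.00537 to 0.319.

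**Figure D3:**
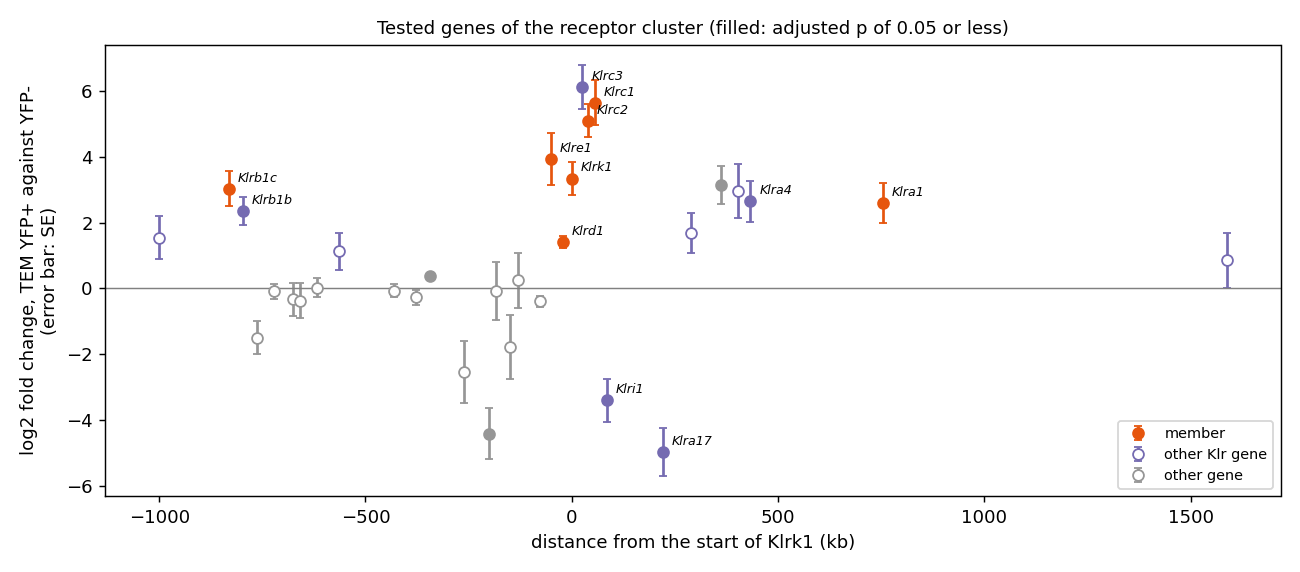
Log2 fold change of TEM YFP+ against TEM YFP− cells, with bars of 1 SE, for the 32 tested genes of the receptor cluster against their distance in kb from the start of Klrk1, filled at an adjusted p of 0.05 or less in limma. The 7 receptor members in the cluster lie between 1.41 and 5.64, and Klra17 at -4.98 and Klri1 at -3.41 lie below 0.

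Of the 10 listed members 9 lie within 2.64 Mb of chromosome 6, from the start of *Klrb1a* to the end of *Klra2*, a stretch set after the data were seen. It holds 92 RefSeq genes, of which 36 had values and 32 were tested. In TEM YFP+ cells 12 of the 32 were called higher and 3 lower, against 2.3% and 4.67% of all tested genes. All 7 tested members of the stretch were among the 12, along with 3 of 10 other lectin-like receptor genes and 2 of 15 other genes. These, named after their values were seen, were *Cd69*, which encodes an early activation antigen (log2 fold change 0.36, adjusted p = 0.031 in limma, SE 0.09), and *Gm15854* (3.13, adjusted p = 0.00476, SE 0.58), which passed the filter only because of the TEM YFP+ libraries and was also called with no filter (adjusted p = 0.00266). The 1 called lower among the 15 was *Clec9a*, a gene of dendritic cells also named after its values were seen (-4.42, adjusted p = 0.00334, SE 0.77). The remaining 12 of the 15 were not called. Of the genes called higher in the stretch, *Klrc1*, *Klrc2*, *Klre1*, *Klrc3* and *Klra4* also passed the filter only because of the TEM YFP+ libraries. Of those called lower, *Klri1* passed only because of the TEM YFP− ones. With no filter each of these was also called, and no count of the stretch without the filter is given here.

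Receptor signalling was followed in a list of 19 adaptor and signalling genes, all tested. Between the TEM populations 1 was called higher in YFP+ cells, 5 lower and 13 were not called, with a median of 0.10. *Hcst*, for the DAP10 adaptor of NKG2D and named after its values were seen, had 2762, 2018 and 1959 normalized counts in TEM YFP+ and 1864, 1824 and 1485 in TEM YFP− cells. The 3 YFP+ libraries lay above the 3 others, with a log2 change of 0.37 (adjusted p = 0.217 in limma, SE 0.15) that was not called, while the replicate block gave an adjusted p of 0.0205. *Tyrobp*, for the DAP12 adaptor of activating Ly49 receptors and NKG2C, had 277, 115 and 273 in TEM YFP+ and 2658, 2010.5 and 3786 in TEM YFP− cells. It was lower in all 3 YFP+ libraries, at -3.72 (adjusted p = 0.00283, SE 0.63). *Fcer1g*, for the adaptor used by NK1.1, had 304, 133 and 268 in TEM YFP+ and 1458, 1125 and 1973 in TEM YFP− cells. Its log2 fold change was -2.74 (adjusted p = 0.0251, SE 0.67), with 0.0789 without TEM YFP− replicate 1, 0.116 without TEM YFP− replicate 3, and 0.0889 and 0.0613 without TEM YFP+ replicate 2 or 3. So of 3 adaptor genes of receptors that were higher in TEM YFP+ cells, the DAP10 gene was not called without the block and the others were called lower. Whether the 3 differed from each other was not tested.

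Further along the pathway, *Sh2d1b1*, which encodes EAT-2, was at -3.68 (adjusted p = 0.00391 in limma, SE 0.66) and *Syk*, a kinase recruited by these adaptors, at -2.86 (adjusted p = 0.00459, SE 0.52), each lower in 3 of 3 TEM YFP+ libraries. *Plcg1* and *Plcg2* are named after their values were seen. *Plcg2* was the remaining gene called lower, at -2.63 (adjusted p = 0.00433, SE 0.48; 3 of 3 libraries). *Plcg1*, the phospholipase of T cell receptor signalling, was called higher, at 0.33 (adjusted p = 0.0176, SE 0.08; 3 of 3 libraries). That call was lost without TEM YFP− replicate 2 (0.0664), TEM YFP− replicate 3 (0.0938) or TEM YFP+ replicate 3 (0.0791). With the replicate block 4 genes of the list were called higher and 6 lower, the added ones, also named after their values were seen, being *Hcst*, *Pik3r1*, *Sh2d2a* and, lower, *Ptpn6*. That block called 1869 of all 15587 tested genes between the TEM populations, against 1087 without it.

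Ligands of these receptors are made by many cells, T cells included. Of 21 listed ligand genes 14 had values and 10 were tested, and 0 were called higher in TEM YFP+ cells, 1 lower and 9 not, with a median of 0.01. At an unadjusted p of 0.05 or less there were 2 of 10, against 2659 of all 15587 tested genes. *H2-T23*, for the Qa-1 ligand of CD94 and NKG2 pairs and named after its values were seen, had 19165, 17632 and 16852 normalized counts in TEM YFP+ and 16827, 16686 and 17364 in TEM YFP− cells, and the groups overlapped (log2 fold change 0.07, adjusted p = 0.798 in limma, SE 0.09). *Cdh1*, for E-cadherin, a ligand of KLRG1, had 171, 81.8 and 97.9 in TEM YFP+ and 655, 393 and 664 in TEM YFP− cells. Its log2 fold change of -2.31 (adjusted p = 0.0118, SE 0.49; lower in 3 of 3 libraries) lost the call without TEM YFP− replicate 1 (0.0563) or 3 (0.0624) or TEM YFP+ replicate 3 (0.0501).

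Among 11 transcription factors of NK and memory T cells, 3 were called higher in TEM YFP+ cells, 0 lower and 8 not, with a median of 0.24. *Zbtb16*, for PLZF, had 2655, 884 and 2088 normalized counts in TEM YFP+ and 260.0, 108 and 198 in TEM YFP− cells (log2 fold change 3.25, adjusted p = 0.00854 in limma, SE 0.66; 0.142 with 0.1 added, in a range from 1.54e-11). *Id2* was at 0.96 (adjusted p = 0.00153, SE 0.15), with 3 of 3 libraries higher. *Tbx21*, for T-bet, had 3890.4, 3418 and 4363 in TEM YFP+ and 2357, 2692 and 2207 in TEM YFP− cells. The groups did not overlap, and the value of 0.68 in log2 (adjusted p = 0.0477, SE 0.19) was not called without naïve YFP− replicate 2 (0.0536), without TEM YFP− replicate 1, 2 or 3 (0.152, 0.0765 and 0.21) or without TEM YFP+ replicate 1, 2 or 3 (0.15, 0.0617 and 0.207), in a range over all settings from 3.97e-05 to 0.21. *Runx3*, named after its values were seen, was not called, at 0.24 (adjusted p = 0.567, SE 0.16). *Eomes* was not called either, at -0.43 (adjusted p = 0.192, SE 0.17), with overlapping groups, and had an adjusted p of 0.0472 with the replicate block. Under that block, which called 1869 of all 15587 tested genes, 5 of the 11 were called higher and 1 lower.

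Some NK cell markers were higher in TEM YFP+ cells, as were the receptors, and others were not. Of 16 listed markers 14 had values and were tested, and in TEM YFP+ cells 7 were called higher, 1 lower and 6 not, with a median of 1.43. With the replicate block, which called 1869 of all 15587 tested genes, 8 of these markers were called higher and 2 lower. Their sum was 102723, 65017 and 77107 normalized counts in TEM YFP+ and 43352, 40868 and 34273 in TEM YFP− libraries, and from 7274 to 9721 in naïve libraries. The most abundant gene in every TEM library was *Il2rb*, an interleukin receptor chain that memory T cells share, at 84391, 53436 and 59662 in TEM YFP+ and 37292, 34249 and 28515 in TEM YFP− cells. Its log2 fold change was 0.96 (adjusted p = 0.00268 in limma, SE 0.16). Of the defining markers, *Ncr1*, for NKp46, was at 0 in all TEM YFP− libraries and at 35.4, 6.21 and 56.1 in TEM YFP+ ones (adjusted p = 0.00391; log2 fold change 4.62 on the scale of the value plus 1, 5.51 without TEM YFP+ replicate 2 and 4.02 without replicate 3). It passed the filter on low values only because of the TEM YFP+ libraries, and with no filter its adjusted p was 0.00277. *Eomes*, which overlapped between the groups, had 375, 459.8 and 336 in TEM YFP+ and 494, 634 and 453 in TEM YFP− cells. *Klra8* was not analysed here.

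*Cd160*, *Ctsw* and *Nkg7* are named here after their values were seen. The other called NK markers were *Prf1*, for perforin, at 3.05 (adjusted p = 0.000125 in limma, SE 0.29), *Xcl1*, for lymphotactin, at 2.94 (adjusted p = 0.00205, SE 0.47; 0.175 with 0.1 added, in a range from 6.46e-15), *Cd160* at 2.49 (adjusted p = 0.000468, SE 0.31), *Ctsw*, for cathepsin W, at 2.07 (adjusted p = 0.000603, SE 0.27) and *Klra4*. Each was higher in 3 of 3 TEM YFP+ libraries. Against naïve cells, *Prf1* was called lower in TEM cells, at -4.25 in YFP− (adjusted p = 1.97e-07 in limma, SE 0.29) and -1.21 in YFP+ cells (adjusted p = 0.00511, SE 0.29). *Cd244a*, for the receptor 2B4, was the marker called lower between the TEM populations, at -3.93 (adjusted p = 0.00494, SE 0.73). *Nkg7*, a granule gene, had 6925, 3794 and 6096 normalized counts in TEM YFP+ and 1776, 2354 and 1502 in TEM YFP− cells. Its log2 fold change of 1.56 (adjusted p = 0.11, SE 0.52) was not called, although the groups did not overlap, and had an adjusted p of 0.0446 with the replicate block. It was also called without naïve YFP+ replicate 2 (0.028) or 3 (0.0457), in a range from 0.0146 to 0.324.

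Markers of NKT cells, and some markers of gamma delta T cells, were also higher in TEM YFP+ cells, within a sort that used CD4, CD62L, CD44 and YFP. All 4 NKT markers were called higher, with a median of 3.57, and they summed to 7601, 2989.7 and 6782 normalized counts in TEM YFP+, 588, 349 and 524 in TEM YFP− and 194 to 333 in naïve libraries. Over all 12 libraries the most abundant was *Trav11d*, though *Zbtb16* was above it in the 3 TEM YFP− libraries and in TEM YFP+ replicate 1. *Traj18* was also above it in naïve YFP− replicate 2 and in naïve YFP+ replicates 2 and 3. *Trav11d* was at 2437, 1039 and 2329 in TEM YFP+ and 135, 89.7 and 127 in TEM YFP− cells (log2 fold change 3.96, adjusted p = 0.000109 in limma, SE 0.37). *Trav11* was at 3.89 (adjusted p = 0.000174, SE 0.40) and *Traj18* at 1.30 (adjusted p = 0.00755, SE 0.26), and the other gene was *Zbtb16*. Of 8 gamma delta markers 6 were tested and 3 were called higher, 0 lower and 3 not, with a median of 2.74. The replicate block, which called 1869 of all 15587 tested genes, called 4 of these markers higher. They summed to 3846, 2031 and 3331 in TEM YFP+, 549, 471 and 622 in TEM YFP− and 536 to 732 in naïve libraries. Called were *Trgc2* at 4.02 (adjusted p = 0.00052, SE 0.51), *Trgc4* at 3.62 (adjusted p = 0.000961, SE 0.51) and *Trgc1* at 3.45 (adjusted p = 0.00196, SE 0.55), while the delta constant gene *Trdc* had 216, 258 and 189 in TEM YFP+ and 214, 248 and 358 in TEM YFP− cells, overlapping. TEM YFP+ replicate 2 had the lowest sum of the NK, NKT and gamma delta lists among TEM YFP+ libraries, and also the lowest *Klrc1*, *Klrc2*, *Klrk1*, *Klrb1c*, *Klrg1* and *Klra1*. By contrast, *Klrd1* and *Klre1* were lowest in TEM YFP+ replicate 1, which had the highest sum of each of the 3 lists. The part of such cells in the levels of the receptors was not tested.

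**Figure D4:**
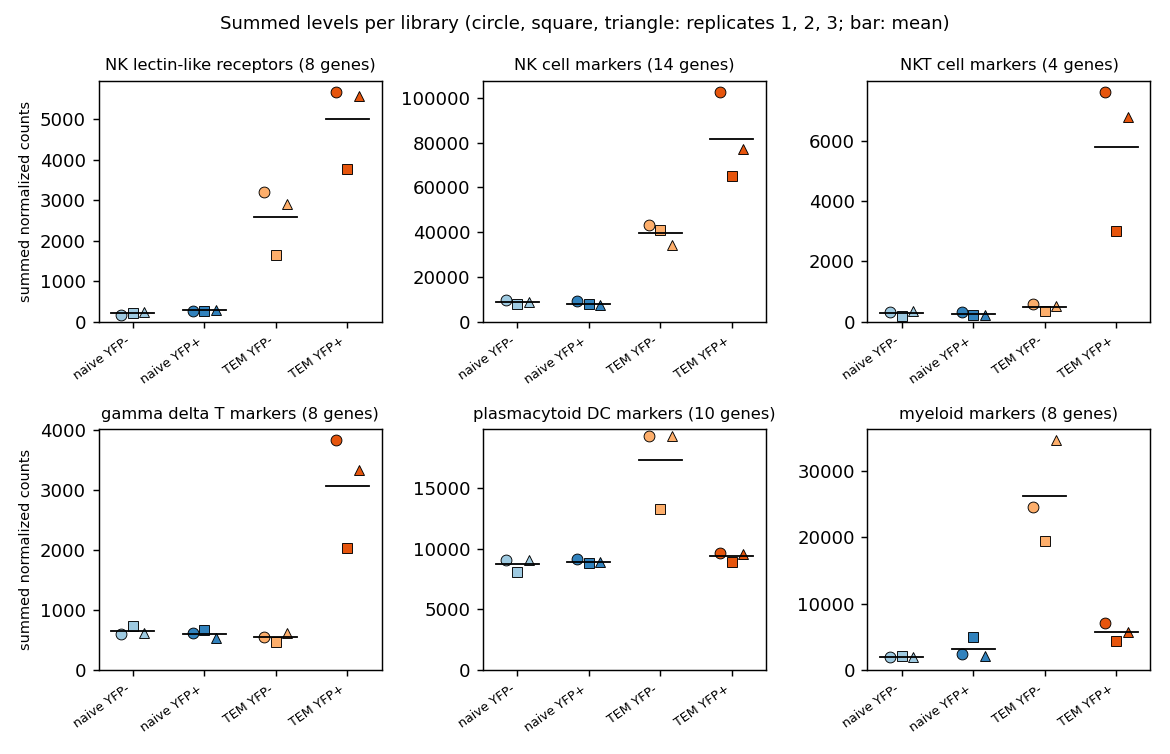
Summed normalized counts of the 8 receptor genes and of 5 lists of cell type markers in each of the 12 libraries, by group, with symbols for replicates 1, 2 and 3 and a bar at the mean. NK, NKT and gamma delta T cell lists are highest in TEM YFP+ cells (means 81616, 5791 and 3069), and dendritic and myeloid lists in TEM YFP− cells (17260.2 and 26204).

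Most markers of dendritic and myeloid cells were lower in TEM YFP+ cells, as were *Klra17*, *Tyrobp*, *Fcer1g*, *Syk* and *Cd244a*. Of 10 markers of plasmacytoid dendritic cells, all tested, 0 were called higher in TEM YFP+ cells, 8 lower and 2 not, with a median of -3.54. The 2 were *Pacsin1* and *Ccr9*, and with the replicate block *Ccr9*, named after its values were seen, was called higher (1.28, adjusted p = 0.0373) and the same number, 8, lower. Their sum was 19257.5, 13279.7 and 19243.5 in TEM YFP−, 9660.2, 8872 and 9557 in TEM YFP+ and 8086.5 to 9112 in naïve libraries. The most abundant in each library was *Pacsin1*, which lay between 3617 and 6744 in all 12 libraries and was not called, and *Klra17* is itself on this list. The largest changes were in *Cox6a2* (-5.84, adjusted p = 0.000961 in limma, SE 0.82; -6.73 and -4.99 without TEM YFP+ replicate 1 or 3; it passed the filter only because of the TEM YFP− libraries, and with no filter the adjusted p was 0.000859), *Klk1* (-5.57, adjusted p = 0.000486, SE 0.69; -6.26 without TEM YFP+ replicate 1) and *Siglech* (-5.45, adjusted p = 0.00373, SE 0.96; 0.1 with 0.1 added, in a range from 0.000143). Of 8 myeloid markers 5 were called lower, 0 higher and 3 were not called, with a median of -2.07, and the replicate block gave the same counts. Of the 3, *S100a8*, named after its values were seen, had 30.3, 7.25 and 48.5 normalized counts in TEM YFP+ and 0, 1.48 and 0 in TEM YFP− cells and was not called (4.11, adjusted p = 0.103, SE 1.35; it passed the filter only because of the TEM YFP+ libraries, and with no filter the adjusted p was 0.101). The 8 myeloid markers summed to 24574, 19381.5 and 34656 in TEM YFP− and 7119.6, 4339 and 5761 in TEM YFP+ cells. Summed over all 12 libraries the most abundant was *Cst3*, though *Itgax* was above it in TEM YFP− replicates 1 and 3. *Csf1r*, named after its values were seen, was above *Cst3* in naïve YFP+ replicate 2 (1601 against 1526). The called genes with the largest changes were *Flt3* (-4.36, adjusted p = 0.000311, SE 0.50) and *Itgax* (-4.15, adjusted p = 0.000667, SE 0.54), lower in 3 of 3 libraries each. The part of these cells in the lower adaptor levels was not tested.

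The remaining marker lists bear on the identity of the sorted cells. Of 10 markers of alpha beta T cells 0 were called in either direction by limma between the TEM populations (3 of 10 at an unadjusted p of 0.05 or less, against 2659 of all 15587 tested genes), 2 were called higher with the replicate block, and the median was 0.23. With that block 1869 of all tested genes were called. *Cd4* was the most abundant over all 12 libraries, though *Thy1*, named after its values were seen, was above it in TEM YFP+ replicates 1 and 3 and in naïve YFP− replicate 3. *Cd4* had 59179, 67141 and 54143 normalized counts in TEM YFP+ and 61493, 67471 and 59783 in TEM YFP− cells, overlapping. Both CD8 genes were called lower in TEM YFP+ cells. *Cd8a* was at -3.13 (adjusted p = 0.00927 in limma, SE 0.64; -2.86, adjusted p = 0.055, without TEM YFP− replicate 3, and -2.44 without TEM YFP+ replicate 2). *Cd8b1*, the more abundant, was at -1.63 (adjusted p = 0.00133, SE 0.24), with 314, 174 and 231 in TEM YFP+ and 721, 525 and 1007 in TEM YFP− cells. Of 6 B cell markers 2 were called higher, 0 lower and 4 not, with a median of 2.00 and sums of 861, 331 and 862 in TEM YFP+ against 416, 409 and 497 in TEM YFP− cells. They were *Ebf1*, at 2.94 (adjusted p = 0.00696, SE 0.57; 3.54 without TEM YFP+ replicate 2), and *Cd79a*, at 1.91 (adjusted p = 0.0383, SE 0.50; 2.53 without TEM YFP+ replicate 2). *Cd79a* was the most abundant over all 12 libraries, while *Cd79b*, named after its values were seen, was above it in all TEM libraries but YFP+ replicate 3. *Cd79b* was at 266, 167 and 260.4 in YFP+ and 335, 276 and 419.7 in YFP− cells, and was not called (-0.58, adjusted p = 0.491, SE 0.35). The call of *Cd79a* was lost without naïve YFP− replicate 3 (0.0569), TEM YFP− replicate 1, 2 or 3 (0.106, 0.0704 and 0.147) or TEM YFP+ replicate 1 or 3 (0.16 and 0.161).

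Genes outside the list that followed 7 of the members most closely over the 12 libraries were ranked by the root mean square difference of their centred log2 values, among genes whose mean was 50 normalized counts or more. For *Klrc1* the nearest were *Cntn1* (0.90), *Slc27a6* (0.91) and *Trgc2* (1.02), and for *Klrc2* they were *Cntn1* (0.61), *Slc27a6* (0.71) and *Atp8a2* (0.76). *Klrk1* was nearest to *Plekhf1* (0.65), *Mmp9* (0.76) and *Itga1* (0.78), and *Klrb1c* to *Mmp25* (0.63), *Pak6* (0.68) and *Trpm6* (0.73). The 2 NKG2 genes thus shared 2 of their 3 nearest genes. *Klrd1*, which varied least, was nearest to *Akr1c12* (0.25), *Cd200r4* (0.27) and *Gab3* (0.28). *Klra1* was nearest to *Samd3* (0.54), *St6galnac3* (0.73) and *Septin8* (0.76). *Klrg1*, the member that was not higher in TEM YFP+ cells, was nearest to the chemokine receptor gene *Cxcr3* (0.85), *Klk1b27* (0.88) and *Ptpn5* (0.97).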

How the data were processed

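The table deposited by the authors gives normalized counts (signal) from DESeq2 for 17523 genes in 12 libraries. Dividing by the value of 1 read gave whole reads for 100% of values, within 1e-06 reads, and 40974124 to 57822269 reads per library. The 15587 genes that reached 5 normalized counts in 3 or more libraries were tested on log2 of the value plus 1 with limma 3.58.1 in R 4.3.3 (two-sided, 8 residual degrees of freedom, Benjamini-Hochberg adjusted p of 0.05 or less). On the recovered reads, edgeR 4.0.16 called 1126 genes and DESeq2 1.42.0 called 1588 between the TEM populations, against 1087 with limma. Members and gene lists were chosen with earlier results of these data known. Named genes are all members, up to 4 called genes with the largest change in each list, the most abundant gene of each marker list, the defining markers Ncr1, Eomes, Klra4 and Klra8, and the 3 nearest genes of each member, which for Klre1 are not reported here. Any other is said to be named after its values were seen. Symbols of 16749 genes came from RefSeq GRCm38.p6 and exon lengths from GENCODE M21. The counting annotation and strand setting were not given in the sources used here. The source gives n = 3 mice and does not say which libraries share a mouse. An exact permutation test of 3 against 3 cannot go below 0.1. Centred values of libraries with the same replicate number correlated at 0.18 to 0.491 within naïve and within TEM cells, and those with different numbers at -0.351 to 0.0184, so the number was also fitted as a replicate block. Floors of 3 reads cover counting error only.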

Additional observations from a re-analysis of the deposited data

Results flagged for a closer look

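For 3 receptor genes the difference between YFP+ and YFP− cells was larger in TEM cells than in naïve cells by the interaction test in limma. The difference between the log2 fold changes was 4.72 for Klrc1, 4.76 for Klrc2 and 1.05 for Klrd1. For Klrc1 and Klrc2 the naïve libraries held 7 reads in all, every one of them in YFP+ replicate 2. Both genes passed the filter on low values only because of the TEM YFP+ libraries. Klrc1 and Klrc2 were not called with edgeR (adjusted p = 0.983 and 0.995) or DESeq2 (0.552 and 0.171). The call of Klrc1 was lost without TEM YFP− replicate 3 or TEM YFP+ replicate 1, and that of Klrd1 (adjusted p = 0.0477) without any 1 of 11 of the 12 libraries.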

How the results depend on the processing

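The direction of a few values depended on the setting. The interaction of Klre1 was -0.26 with edgeR, against 2.95. In naïve cells, leaving out 1 library at a time gave log2 fold changes of 0 to 1.39 for Klrc1, 0 to 0.49 for Klrc2, 0 to 1.49 for Klre1 and -0.16 to 1.46 for Klrg1. The 0 values came without naïve YFP+ replicate 2, where Klrg1 was at -0.06, and the -0.16 came without naïve YFP− replicate 3. Those fits are not paired, and within each replicate number Klrg1 was higher in YFP+ naïve cells. Over all settings the naïve log2 fold changes reached 4.15 for Klrc1, 1.93 for Klrc2, 4.35 for Klre1 and 1.54 for Klrg1. The number of members with a called interaction, 3, was 0 with 0.1 added before the log, 7 with 5 added, 6 with quantile normalization, 1 with edgeR, 2 with DESeq2 and 1 to 4 when 1 library was left out. The share of all tested genes with a called interaction under these settings is not given here, so these counts are not set against it. Between the TEM populations the 7 called members were 5 with 0.1 added and 5 to 7 when 1 library was left out. Of all tested genes 836 and 638 to 1253 were called in these settings, in either direction, against 1087 in the main fit. Between TEM and naïve YFP− cells, 7 higher and 0 lower became 3 and 1 with quantile normalization, and 6 to 7 and 0 to 1 when 1 library was left out. There 9510 and 6695 to 7950 of all 15587 tested genes were called, in either direction, against 7769 in the main fit. With the replicate block, 7 members were called higher between the TEM populations and 3 in the interaction, and it changed no call of a member. Of 106 other listed genes that were tested, 13 gained a call with it, Klra6, Hcst, Eomes and Nkg7 among them, and 0 lost it. Over all 15587 tested genes the block raised the number called between the TEM populations from 1087 to 1869, so such gains are not particular to these genes. Summing Klrc1, Klrc2 and Klrc3, chosen after seeing the data, gave 5.85 between the TEM populations and 4.66 in the interaction. The naïve part of that interaction came from naïve YFP+ replicate 2 only. With 3 libraries per group and 0 to 6 reads of Klrc1 per naïve library, small differences between naïve populations were not detectable, and bulk RNA cannot show which cells carry the receptors.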
